A study of Rattus norvegicus with 23 samples.

Results

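RNA levels of 36 genes of programmed cell death were compared in samples of isolated microglia. Death itself was not measured, and RNA levels do not show whether cells died. The genes were the BCL2 family, the caspases with their inhibitors and the mitochondrial factors released with them, and the death receptors. To these were added the genes of necroptosis and pyroptosis, 2 genes of the p53 response, and Pawr. The list was matched by symbol to the deposited table, where all 36 were found among 20301 genes. Pawr, prostate apoptosis response 4, was on the list because the study singled it out in LPS/HI on these same samples, so its difference there is not independent evidence.

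RNA of microglia from Wistar rats was sequenced 24 h after an operation at postnatal day 7. The Sham group (n = 6) had a neck incision only, and no injection is stated for it. The LPS group (n = 5) received lipopolysaccharide at 0.1 mg/kg 4 h before the sham surgery. In the NaCl/HI group (n = 6), saline was followed by ligation of the left common carotid artery and by hypoxia, with 8% oxygen for 50 min, and in the LPS/HI group (n = 6) the same LPS dose came before the same ligation and hypoxia. Operations in all groups were under isoflurane, and cells were taken with beads against CD11b/c, which macrophages and granulocytes carry as well. Each Sham or LPS sample was the entire brain of 1 pup, whereas each NaCl/HI or LPS/HI sample pooled the ipsilateral hemispheres of 2 pups. HI, the tissue taken and the pooling therefore cannot be told apart wherever NaCl/HI or LPS/HI is set against Sham or LPS, and neither can an injection and the rest of the treatment wherever another group is set against Sham. Samples of a group were separate pups or pools.

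Apoptosis from within runs through the BCL2 family at the outer mitochondrial membrane, where pro-survival members restrain the effectors Bax and Bak and BH3-only members release that restraint. Cytochrome c and its companions then leave the mitochondrion and start the caspase cascade, which the inhibitor of apoptosis proteins oppose. Death receptors start the cascade from the cell surface, RIPK1, RIPK3 and MLKL carry necroptosis, gasdermin D forms the pores of pyroptosis, and p53 induces several of the BH3-only genes. Microglia depend on signals from their surroundings for survival, and lipopolysaccharide induces pro-survival genes in myeloid cells through NF-kB.

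All values are log2 values on the rlog scale of DESeq2, from which the authors removed 3 surrogate variables. They were not divided by gene length, so levels are compared between groups and not between genes. A difference is that of 2 group means on this scale, given with its SE from limma, and a gene was called where its p, adjusted by Benjamini-Hochberg over all 20301 genes, was under 0.05. Since rlog draws weakly expressed genes toward their mean, folds are shrunken. The removal took variation from within the groups, where 16 dimensions were left beside 19 residual degrees of freedom of the 4 groups, so p values can be too low. The table holds no counts, so the sequencing depth behind a value is not known here.

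The label of the cells was checked on microglial markers. Csf1r, the receptor these cells need to live, lay between 16.30 and 16.64 in the 23 samples, and Cx3cr1 between 15.38 and 15.70. Of 11 microglial markers in the table, Siglech was the only one listed near 0, between -1.09 and -1.0. Markers of other cells were present too. The mean of 12 neutrophil markers was 6.37 to 6.78 in Sham and 6.52 to 7.44 in LPS/HI, that of 10 mural cell and fibroblast markers 8.91 to 9.12 and 9.16 to 9.35, and that of 8 proliferation genes 11.34 to 11.70 in Sham and 11.82 to 12.25 in LPS. The 6 markers of T, NK and B cells averaged 3.12 to 3.41 in every sample. Of the neutrophil list, Elane, which immature granulocytes transcribe, was at 0.25 to 0.44, whereas S100a8, S100a9, Mmp8 and Padi4 were called higher in LPS/HI than in Sham, S100a9 with group means of 10.86 and 9.68. Ngp and Ltf went the other way without a call, with means of 6.50 and 4.73 in LPS/HI and 7.08 and 4.89 in Sham. In such bulk samples fewer cells of a type and less RNA per cell cannot be told apart, and the part that these lists have in the differences below was not tested.

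Promoters of 4 members are shown because their genes carry the main contrasts below, the falling Bcl2 beside the rising Bcl2a1, the p53 target Cdkn1a, and Pawr. Each line gives the 250 bases before the annotated start, 5′ to 3′ on the gene's strand, from RefSeq on GRCr8, a later build than the mRatBN7.2 of the expression table. Positions are chr13:23366901-23367150 on the minus strand for Bcl2, chr8:98596556-98596805 on the plus strand for Bcl2a1, chr20:7150682-7150931 on the plus strand for Cdkn1a and chr7:45531989-45532238 on the plus strand for Pawr. Capitals mark the core ACGTG of hypoxia response elements in Bcl2 and a p53 half-site in Cdkn1a.
Bcl2: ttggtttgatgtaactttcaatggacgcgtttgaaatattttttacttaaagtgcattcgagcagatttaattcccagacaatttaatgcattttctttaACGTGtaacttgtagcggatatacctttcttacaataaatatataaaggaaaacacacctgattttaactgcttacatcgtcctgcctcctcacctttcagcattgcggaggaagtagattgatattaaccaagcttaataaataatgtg
Bcl2a1: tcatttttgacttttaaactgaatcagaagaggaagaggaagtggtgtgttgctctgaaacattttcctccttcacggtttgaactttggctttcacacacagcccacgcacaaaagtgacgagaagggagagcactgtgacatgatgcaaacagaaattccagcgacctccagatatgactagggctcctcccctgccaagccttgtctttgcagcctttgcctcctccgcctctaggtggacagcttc
Cdkn1a: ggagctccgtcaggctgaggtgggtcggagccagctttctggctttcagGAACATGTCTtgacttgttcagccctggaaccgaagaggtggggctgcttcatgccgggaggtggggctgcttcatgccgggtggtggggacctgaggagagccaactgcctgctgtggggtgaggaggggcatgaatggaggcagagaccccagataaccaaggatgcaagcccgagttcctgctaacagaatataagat
Pawr: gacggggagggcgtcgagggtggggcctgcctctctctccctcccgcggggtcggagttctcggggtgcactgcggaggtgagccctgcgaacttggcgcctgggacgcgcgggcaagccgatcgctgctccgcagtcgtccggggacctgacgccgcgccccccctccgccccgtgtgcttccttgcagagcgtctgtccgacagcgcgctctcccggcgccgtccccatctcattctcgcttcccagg

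The Cdkn1a match lies at -201 to -192 from the start and that of Bcl2 at -150 to -146. G and C made up 33.6% of the Bcl2 window, 48.8% of that of Bcl2a1, 58.8% of that of Cdkn1a and 72.8% of that of Pawr, beside a median of 51.2% over all 33469 promoters. Whether microglia use the annotated start is not known from these data, above all for the AT-rich window of Bcl2, so its base composition and match hold for that start alone. Promoters were found for 27 of the 36 members, 30 windows in all, and 4 motifs were searched on both strands. The NF-kB consensus was in those of Fas, Mcl1 and Pmaip1 and in 4.24% of all promoters, the p53 half-site in those of Cdkn1a and Cflar and in 6.64%, and GAAA repeated after 2 bases of any kind (GAAA, N, N, GAAA), as in interferon response elements, in that of Casp12 and in 3.41%. ACGTG was in those of Apaf1, Bcl2, Bcl2l1, Casp9 and Fadd and in 16.6% of all promoters. A match is a run of letters and not a bound site.

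Against Sham, LPS alone gave the most calls among the 36 genes, with pro-survival genes in both directions and Birc3, Diablo, Aifm1 and Gsdmd higher. In this comparison 10 members were called, 7 higher and 3 lower in LPS, where 17.8% of all genes were called, 10.2% as higher and 7.56% as lower. LPS/HI against Sham gave 6, 4 higher and 2 lower (8.77% of all genes, 5.3% as higher and 3.48% as lower), and NaCl/HI against Sham gave 0 (0.00985%). LPS/HI against NaCl/HI gave 1 (0.202%), LPS/HI against LPS 0 (1.94%), and LPS against NaCl/HI 10, 8 higher and 2 lower in LPS (8.98%, 5.32% as higher and 3.66% as lower). The interaction of LPS with HI was called for 0 members (1.08%). A difference of any kind among the 4 groups was called for 13 members. That is 36.1% of the members, beside 14.8% of all genes and 20.9% of 86 other genes of these pathways. The lists were chosen with earlier results of these data known, and Pawr, 1 of the 13, for its difference in LPS/HI. All 36 members had a mean of at least 4.14, whereas all genes include weaker ones, whose differences rlog shrinks. The higher share therefore does not show that these pathways changed more than other genes of like level. Both limits hold for every share of all genes set beside the members. By the exact Wilcoxon rank-sum test, adjusted over all genes, LPS against Sham gave 11 (19.1% of all genes) and LPS/HI against Sham 3 (9.84%). In the other 4 pairs it called 0.0% of all genes, and even genes whose groups did not overlap had an adjusted p of 0.0593 to 0.213, depending on the pair, so its count of 0 members there says nothing about the calls by limma. The median difference of the 36 genes was between -0.03 and 0.03 in all 7 comparisons, beside -0.01 to 0.01 over all genes, while the calls of LPS against NaCl/HI were mostly of higher members, as given above. The counts moved with single libraries. For fits with a library left out the share of all genes called is not given, so their counts are not results about the members alone. LPS/HI against Sham gave 1 call without Sham replicate 6 or LPS/HI replicate 5, 2 without LPS/HI replicate 2 or 3, and 3 without LPS/HI replicate 4 or Sham replicate 5. LPS against NaCl/HI gave 5 without LPS replicate 2 and 6 without LPS replicate 4 or 5 or NaCl/HI replicate 1 or 2.

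**Figure D1:**
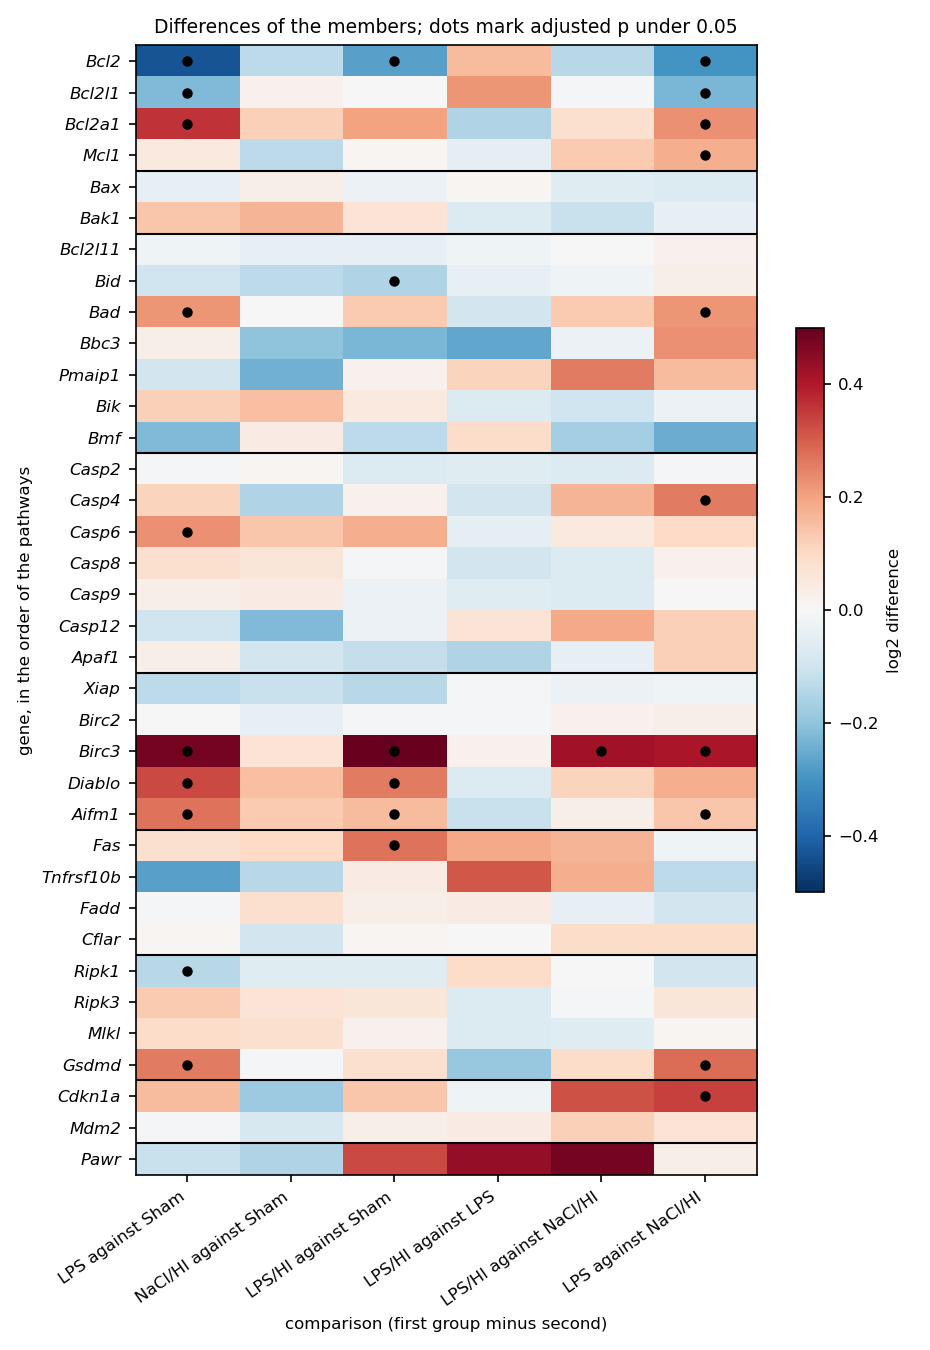
Log2 differences of the 36 members (rows, in the order of their pathways, which lines separate) in the 6 pairs of groups (columns, first group minus second), with red for higher and blue for lower in the first group and a dot where the adjusted p was under 0.05. Dots stand mainly in the columns of LPS against Sham and of LPS against NaCl/HI, 10 in each, and Pawr, without a dot, has the highest difference of the 36 in LPS/HI against LPS and against NaCl/HI.

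The 4 pro-survival members split. Bcl2, the founding member of the family, was lowest in LPS, with 8.71, 8.71, 8.82, 8.56 and 8.62 in the 5 samples, against 8.96 to 9.22 (median 9.16) in Sham. Every LPS sample was below every Sham sample. The difference was -0.43 (SE 0.08, adjusted p = 0.000439), a fold of 0.743, and it was -0.31 in the first 12 libraries and -0.58 in the other 11. Bcl2l1, which encodes Bcl-xL together with a shorter pro-apoptotic splice form that a gene-level value does not separate, was 11.65, 11.79, 11.74, 11.51 and 11.57 in LPS and 11.77 or more (median 11.86) in Sham. These groups overlapped, and the difference of -0.22 (SE 0.06, adjusted p = 0.0216) was -0.09 in the first library series and -0.38 in the second. Without Sham replicate 6, LPS replicate 4 or LPS replicate 5 it was no longer called, with adjusted p up to 0.0738.

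Markers of other cells moved in LPS against Sham too. Of 9 neuron markers 6 were called lower, with list means of 6.93 to 7.13 in LPS and 7.18 to 7.41 in Sham, and of 8 endothelial markers 4 were lower and 1 higher, with means of 11.01 to 11.32 and 11.17 to 11.46. The microglial list had 5 of 11 lower, the neutrophil list 2 of 12 lower and 1 higher, the list of border-associated macrophages 2 of 6 lower, and the monocyte and astrocyte lists 1 higher each. Their part in the differences of the 10 members called here was not tested.

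Bcl2a1, the pro-survival member A1 of blood and myeloid cells, went the other way. It was 10.55, 10.48, 10.48, 10.73 and 10.27 in LPS and at most 10.26 (median 10.16) in Sham, without overlap. The difference was 0.36 (SE 0.07, adjusted p = 0.0018), a fold of 1.28. The medians of both HI groups stood between these, with overlap of the values, at 10.08 to 10.43 (median 10.26) in NaCl/HI and 10.21 to 10.48 (median 10.36) in LPS/HI. Mcl1, a short-lived pro-survival protein, differed from Sham by 0.05 in LPS (adjusted p = 0.505) and was called only against NaCl/HI, where LPS was higher by 0.18 (SE 0.05, adjusted p = 0.0299).

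Bcl2 in LPS/HI was 8.60 to 9.0 (median 8.86), lower than in Sham by 0.27 on the log2 scale (difference -0.27, SE 0.07, adjusted p = 0.0254), with an overlap of the groups. This call ended without Sham replicate 5 or 6 or without LPS/HI replicate 2, 3 or 5, where adjusted p rose to at most 0.0618. Against NaCl/HI, all 4 pro-survival genes were called in LPS, Bcl2 (difference -0.30) and Bcl2l1 (-0.23) as lower and Mcl1 and Bcl2a1 (0.23) as higher. With 1 library left out, Bcl2 stayed called in all 23 fits, whereas Bcl2a1 lost its call in 15, with adjusted p up to 0.15, and Mcl1 in 7, with adjusted p up to 0.0889. Bcl2l1 lost it without LPS replicate 4 or 5 or NaCl/HI replicate 4, with adjusted p up to 0.083. In the same pair 4 of 11 microglial, 2 of 10 mural cell and fibroblast and 2 of 9 neuron markers were called lower in LPS, 2 of 8 endothelial markers lower and 1 higher, and 5 of 8 proliferation genes higher. The other marker lists had at most 2 calls each, and the part of all these lists in the differences was not tested. Bcl2 in LPS/HI differed from LPS by 0.16 (SE 0.08, adjusted p = 0.308), and its interaction term was 0.29 (adjusted p = 0.186).

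**Figure D2:**
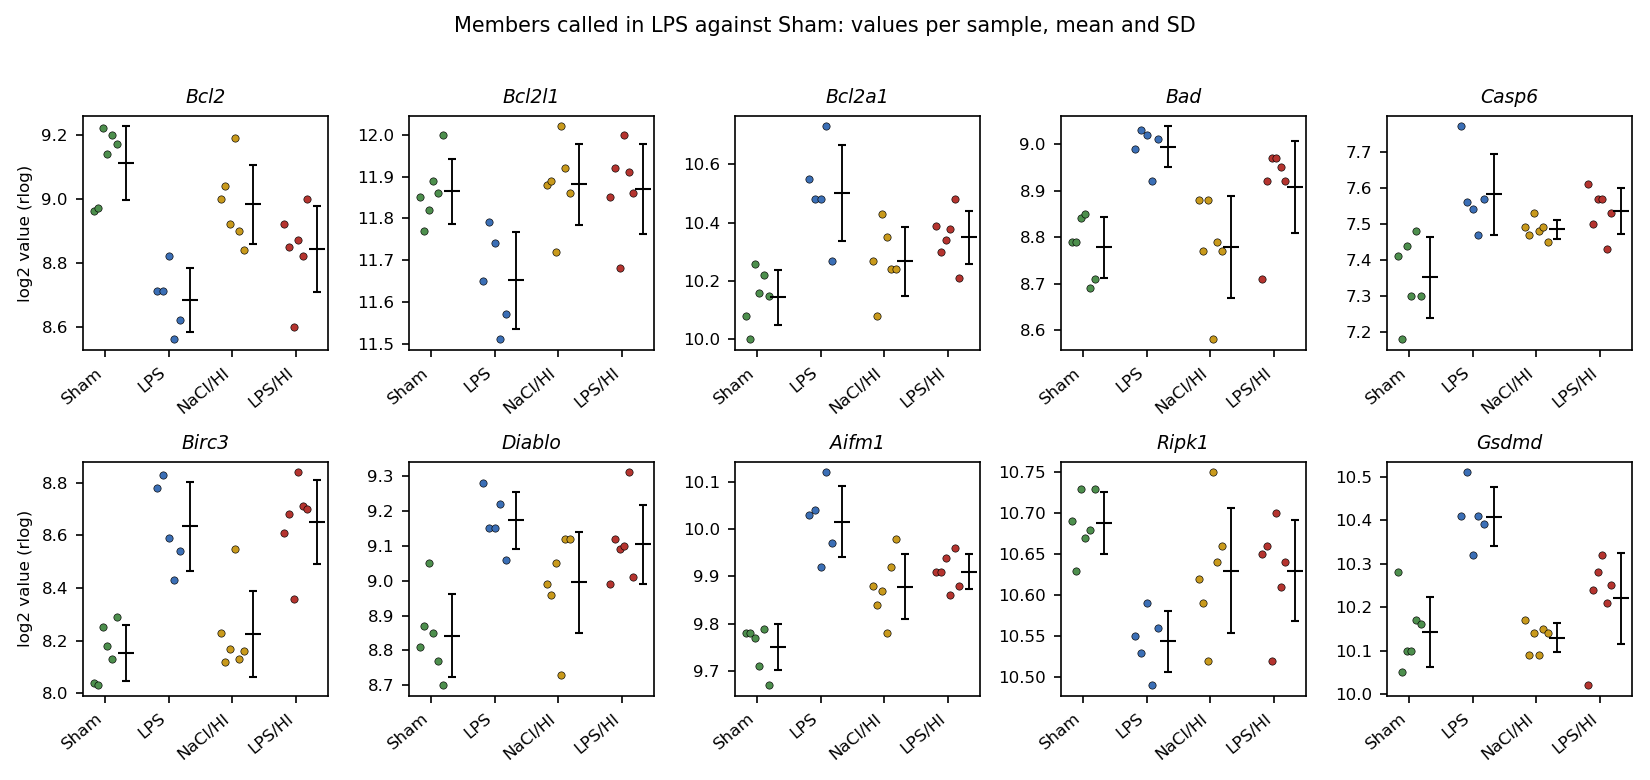
Log2 values (vertical axes, rlog scale, each with its own range) of the 10 members called in LPS against Sham, 1 point per sample in the 4 groups, with bars for the mean and SD. Bcl2, Bcl2l1 and Ripk1 are lower in LPS than in Sham and the other 7 are higher, and only Bcl2l1 and Casp6 overlap between these groups.

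Neither effector was called in any pair. Bak1, the one with the smaller adjusted p, was 9.97 to 10.18 (median 10.03) in Sham and 10.02 to 10.29 (median 10.25) in NaCl/HI, a difference of 0.17 (SE 0.05, adjusted p = 0.181). NaCl/HI replicate 4 alone, at 10.02, lay within the Sham range, and the other 5 were at 10.24 to 10.29. Without that replicate Bak1 was called.

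Among the 7 BH3-only genes, Bad, whose product binds Bcl-2 and Bcl-xL, was higher in LPS. Its values were 8.99, 9.03, 9.02, 8.92 and 9.01 in LPS and 8.69 to 8.85 (median 8.79) in Sham, and the groups did not overlap. The difference was 0.22 (SE 0.06, adjusted p = 0.0129), and against NaCl/HI, at 8.58 to 8.88 (median 8.78), it was 0.22 as well (adjusted p = 0.0225), a call that ended without LPS replicate 2 (adjusted p = 0.0601). Bid, which caspase-8 cleaves to link death receptors to mitochondria, was lower in LPS/HI than in Sham. Its values were 10.59 to 10.69 (median 10.67) against 10.72 to 10.94 (median 10.78), so the groups were apart. The difference of -0.15 (SE 0.04, adjusted p = 0.0356) lost its call when any of 10 libraries was left out, among them 4 of Sham and all 6 of LPS/HI, with adjusted p up to 0.0877.

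Pmaip1 (Noxa) and Bbc3 (Puma), BH3-only genes that p53 induces, were not higher in any pair by the test. Pmaip1 stood apart in NaCl/HI, with 8.97 to 9.21 (median 9.09) against 9.23 to 9.51 (median 9.31) in Sham and 9.25 to 9.47 (median 9.36) in LPS/HI. All 6 NaCl/HI samples were below every sample of both these groups. The differences were -0.24 for NaCl/HI against Sham (SE 0.06, adjusted p = 0.119) and 0.26 between LPS/HI and NaCl/HI (SE 0.06, adjusted p = 0.0679), neither called, although the test over all 4 groups called Pmaip1 (adjusted p = 0.0136). Values of a group pair without overlap, as here, were found for 1.01% of all genes in NaCl/HI against Sham and for 1.33% in LPS/HI against NaCl/HI. Without NaCl/HI replicate 4, the fall against Sham passed the test (adjusted p = 0.0278), and without LPS/HI replicate 1 the rise against NaCl/HI did. The interaction term of Pmaip1 was 0.35 (SE 0.09, adjusted p = 0.0533), and it was called without LPS replicate 3 or 5, NaCl/HI replicate 3 or 4, or LPS/HI replicate 3.

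Bbc3 was 8.62 to 9.04 (median 8.77) in Sham, 8.47 to 8.70 (median 8.60) in NaCl/HI and 8.24 to 8.73 (median 8.66) in LPS/HI, and the values of 8.91, 8.97, 8.82, 8.68 and 8.71 in LPS were near those of Sham. LPS/HI differed from LPS by -0.26 (SE 0.09, adjusted p = 0.141). That difference was -0.49 in the first library series and 0.01 in the second. LPS/HI replicates 1 and 3, both of the first series, held the lowest values of 8.34 and 8.24.

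**Figure D3:**
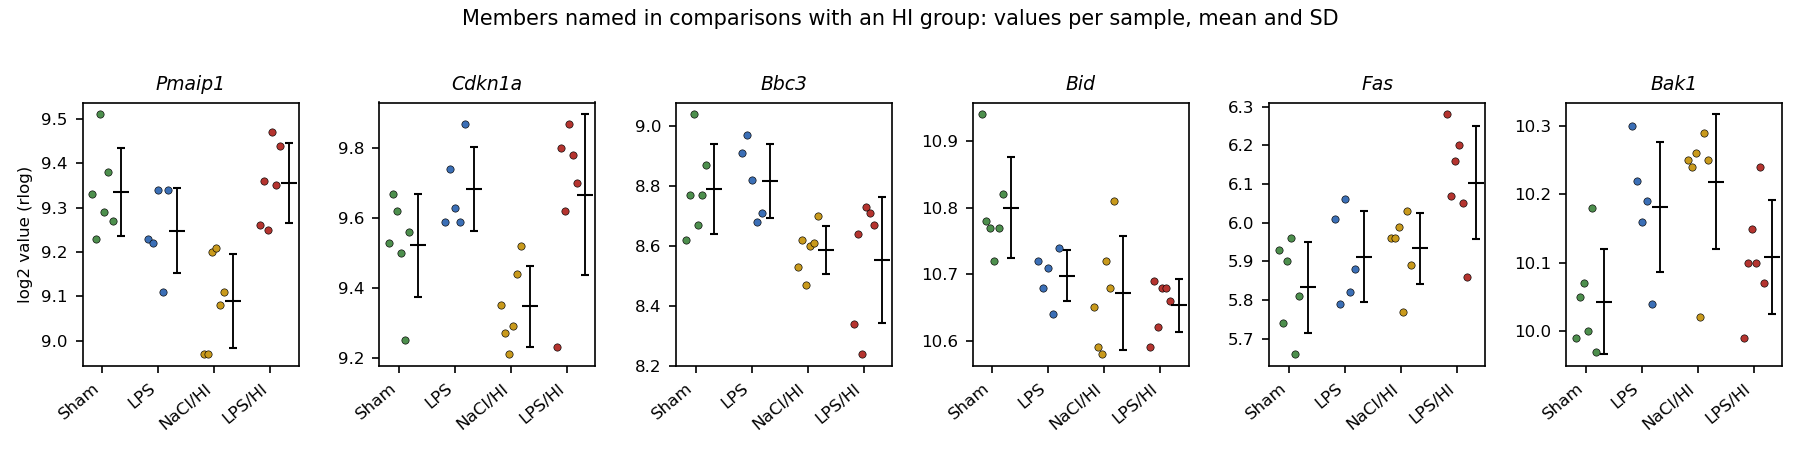
Log2 values (vertical axes, rlog scale, each with its own range) of Pmaip1, Cdkn1a, Bbc3, Bid, Fas and Bak1, 1 point per sample in the 4 groups, with bars for the mean and SD. Pmaip1 in NaCl/HI, at 8.97 to 9.21, lies below all Sham and LPS/HI samples, and LPS/HI replicate 1 is below the other 5 of its group for Cdkn1a.

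Of the 7 caspase and apoptosome genes, Casp6, an executioner caspase, was higher in LPS than in Sham. It was 7.77, 7.56, 7.54, 7.47 and 7.57 against 7.18 to 7.48 (median 7.36), and only the lowest LPS value overlapped. The difference was 0.23 (SE 0.06, adjusted p = 0.0128). Casp4, the inflammatory caspase that senses lipopolysaccharide inside the cell and cleaves gasdermin D, was 9.85, 9.87, 9.90, 9.95 and 10.10 in LPS, 9.78 to 9.90 (median 9.82) in Sham and 9.48 to 9.88 (median 9.66) in NaCl/HI. LPS exceeded NaCl/HI by 0.26 (SE 0.06, adjusted p = 0.0074), while NaCl/HI differed from Sham by -0.15 (SE 0.06, adjusted p = 0.23) and LPS/HI exceeded NaCl/HI by 0.17 (SE 0.06, adjusted p = 0.224). NaCl/HI replicate 4, at 9.88, was the highest of its group, and without it Casp4 was called against Sham too. Casp12, an inflammatory caspase of the endoplasmic reticulum, had its lowest mean in NaCl/HI, at 5.31 to 5.50 against 5.47 to 5.84 in Sham, with a difference of -0.22 (SE 0.08, adjusted p = 0.216).

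Birc3, which encodes cIAP2, a ubiquitin ligase that acts on RIPK1 and is induced through NF-kB, went with LPS whether or not HI followed. In LPS it was 8.78, 8.83, 8.59, 8.43 and 8.54, and in LPS/HI 8.36 to 8.84 (median 8.69). Sham was at 8.03 to 8.29 (median 8.16) and NaCl/HI at 8.12 to 8.55 (median 8.17). Both LPS groups lay wholly above Sham. The differences from Sham were 0.48 in LPS (SE 0.09, adjusted p = 0.00109) and 0.50 in LPS/HI (SE 0.09, adjusted p = 0.00286), folds of 1.39 and 1.41, and LPS/HI against Sham kept its call in each of the 23 fits with 1 library left out. LPS exceeded NaCl/HI by 0.41 (SE 0.09, adjusted p = 0.00738).

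Birc3 was also the 1 member called in LPS/HI against NaCl/HI, with a difference of 0.42 (SE 0.09, adjusted p = 0.046), and all 6 LPS/HI samples were above the NaCl/HI mean. This call is narrow. It was lost in 18 of the 23 fits with 1 library left out, where adjusted p reached 0.125, and NaCl/HI replicate 4, at 8.55, stood above the 8.12 to 8.23 of the other 5. Without LPS/HI replicate 1, 4 members were called, Birc3, Pmaip1, Cdkn1a and Pawr. Without both these libraries there were 3, Birc3, Pmaip1 and Cdkn1a. The share of all genes called in those fits is not given, so the rise is not one of the members alone. At an unadjusted p under 0.05 in the fit of all 23 libraries, 12 members differed in this comparison, 11 of them higher in LPS/HI, beside 10.6% of all genes.

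Diablo (Smac), a mitochondrial protein that on release binds the inhibitor of apoptosis proteins, was 9.28, 9.15, 9.15, 9.22 and 9.06 in LPS and 8.70 to 9.05 (median 8.83) in Sham, without overlap. The difference was 0.33 (SE 0.07, adjusted p = 0.00398). Aifm1, a mitochondrial flavoprotein that supports respiration and can carry caspase-independent death, was 10.03, 10.04, 9.92, 10.12 and 9.97 in LPS and 9.67 to 9.79 (median 9.77) in Sham. Its difference of 0.27 (SE 0.04, adjusted p = 0.000217) had the smallest adjusted p of the 36 genes in this comparison, and the groups did not overlap. In LPS/HI both were above Sham as well, Diablo by 0.26 (adjusted p = 0.0275) and Aifm1 by 0.16 (adjusted p = 0.0234). Leaving out any of 6 libraries ended the call of Diablo there, and leaving out LPS/HI replicate 3 or 5 or Sham replicate 6 that of Aifm1. Aifm1 in LPS also exceeded NaCl/HI by 0.14 (adjusted p = 0.0472), which 19 of 23 fits with 1 library left out did not call.

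Of the death receptor genes, Fas was called once. It was 5.86 to 6.28 (median 6.11) in LPS/HI and 5.66 to 5.96 (median 5.86) in Sham, where only the lowest LPS/HI sample, replicate 6, fell into the Sham range. The difference was 0.27 (SE 0.08, adjusted p = 0.0376), and leaving out any of 8 libraries ended the call, with adjusted p up to 0.0924. The values in LPS were 6.01, 5.79, 6.06, 5.82 and 5.88, and those in NaCl/HI 5.77 to 6.03. Beside this rise, the neutrophil list was called for 4 of its 12 genes and the mural cell and fibroblast list for 5 of its 10 in LPS/HI against Sham, all higher. Of the neutrophil list, 2 genes were lower in LPS/HI at an unadjusted p under 0.05 by limma, without a call. In this pair 5 of 8 proliferation genes, 2 of 8 endothelial and 2 of 7 monocyte markers were called higher as well, 3 of 9 neuron markers lower, and at most 1 gene of each other marker list. Tnfrsf10b, a receptor for TRAIL, was weakly expressed and was 5.25, 5.18, 5.11, 5.08 and 5.28 in LPS, against 5.13 to 5.69 (median 5.47) in Sham and 5.26 to 5.64 (median 5.54) in LPS/HI. It differed by -0.27 from Sham (SE 0.11, adjusted p = 0.0856), and LPS/HI differed from LPS by 0.31 (SE 0.11, adjusted p = 0.141).

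Among the necroptosis and pyroptosis genes, Gsdmd, the pore former that inflammatory caspases cleave, was higher in LPS than in each of Sham and NaCl/HI. It was 10.41, 10.51, 10.32, 10.41 and 10.39 in LPS, 10.05 to 10.28 (median 10.13) in Sham, 10.09 to 10.17 (median 10.14) in NaCl/HI and 10.02 to 10.32 (median 10.25) in LPS/HI. The LPS samples lay wholly above both of the first 2 groups. The difference was 0.26 from Sham (SE 0.05, adjusted p = 0.0011) and 0.28 from NaCl/HI (SE 0.05, adjusted p = 0.00133), each called in all 23 fits with 1 library left out. LPS/HI stood below LPS by 0.19 (difference -0.19, SE 0.05, adjusted p = 0.0568), a difference that missed the test and that was called without LPS replicate 3. Ripk1, the kinase that decides between survival and death signals of the TNF receptor, was 10.55, 10.53, 10.59, 10.49 and 10.56 in LPS and 10.63 to 10.73 (median 10.68) in Sham. The groups were apart, and the difference of -0.14 (SE 0.04, adjusted p = 0.0212) was not called without LPS replicate 2 or 4, with adjusted p up to 0.0612.

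Cdkn1a, the cell cycle inhibitor p21 and a standard read-out of p53, was 9.59, 9.74, 9.63, 9.59 and 9.87 in LPS and 9.21 to 9.52 (median 9.32) in NaCl/HI, without overlap. The difference was 0.34 (SE 0.10, adjusted p = 0.0311). Without LPS replicate 2 or 5 or without any of NaCl/HI replicates 1 to 4 it was not called, with adjusted p up to 0.0886. In LPS/HI, 5 of the 6 samples were at 9.62 to 9.87 and replicate 1 was at 9.23, and the difference from NaCl/HI of 0.32 (SE 0.09) had an adjusted p of 0.154, which was 0.0197 without that replicate. Sham, at 9.25 to 9.67 (median 9.54), differed from none of the others by the test. Proliferation genes moved beside Cdkn1a: 5 of 8 were called higher in LPS than in NaCl/HI, with list means of 11.82 to 12.25 and 11.55 to 11.70. Mdm2, the p53 target that feeds back on p53, had group means between 10.20 and 10.31 and no call.

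The study, using DESeq2 on counts and Wilcoxon tests on normalized values, reported Pawr as significantly higher in LPS/HI than in every other group. Pawr was therefore set against the other 35 genes, here by limma on the rlog values, which is another test on another scale. Its values were 5.65, 6.07, 5.89, 6.33, 6.24 and 5.88 in LPS/HI, where the median was 5.98, against 5.41 to 5.83 (median 5.72) in Sham, 5.37 to 5.82 (median 5.47) in NaCl/HI and 5.82, 5.57, 5.63, 5.26 and 5.55 in LPS. Only LPS/HI replicate 1 fell within the ranges of the other groups. Of the 36 differences, that of Pawr was the highest in LPS/HI against NaCl/HI (0.48), in LPS/HI against LPS (0.44) and in the interaction (0.59), and the second highest, after Birc3, in LPS/HI against Sham (0.33). Over all genes, 0.335%, 0.872%, 0.414% and 2.52% had a higher difference in these 4 comparisons. In LPS and NaCl/HI against Sham it was 30th and 31st of the 36.

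None of these single comparisons of Pawr passed the test, with adjusted p = 0.0899, 0.0602, 0.0953 and 0.0771 in that order, whereas the test over the 4 groups did (adjusted p = 0.0233). Its SD within groups, 0.20, was the highest of the 36. The difference of LPS/HI from LPS was 0.19 in the first library series and 0.75 in the second, that from Sham 0.11 and 0.55, and that from NaCl/HI 0.35 and 0.60. Without LPS/HI replicate 1 the 3 pairs were called, with differences of 0.40 from Sham, 0.51 from LPS and 0.55 from NaCl/HI. Had the residual degrees of freedom been left at 19, without the lowering for the surrogate variables, all 4 would have been called, with adjusted p = 0.031, 0.0241, 0.0397 and 0.041 in the same order, under a setting that raised the calls over all genes too, to 1.20%, 4.96%, 3.28% and 15.2%.

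Markers of other cells moved with Pawr in some of these pairs. In LPS/HI against LPS, 3 of 10 mural cell and fibroblast markers, 3 of 8 endothelial and 1 of 12 neutrophil markers were called, all higher, and against Sham 5 of 10, 2 of 8 and 4 of 12. In LPS/HI against NaCl/HI, where Pawr differed by 0.48, the counts were 0, 0 and 1, with 1, 3 and 5 at an unadjusted p under 0.05 by limma. The part of these cells in the level of Pawr was not tested. Of the 5 partners of Pawr in the table, 0 were called in any comparison with LPS/HI, and at an unadjusted p under 0.05 limma found 1, lower than in NaCl/HI.

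**Figure D4:**
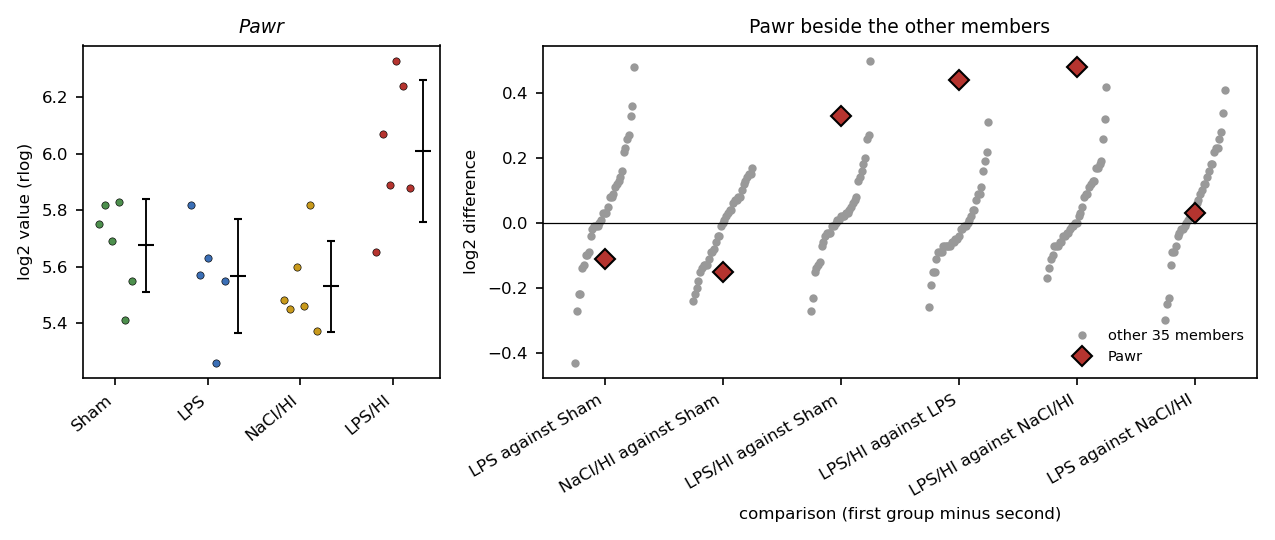
Left, log2 values of Pawr (rlog scale), 1 point per sample in the 4 groups, with bars for the mean and SD. Right, the log2 differences (first group minus second) of Pawr as a diamond and of the other 35 members as dots in rank order, for the 6 pairs of groups. Pawr is at the top in LPS/HI against LPS (0.44) and against NaCl/HI (0.48), second in LPS/HI against Sham (0.33), and below 0 in LPS and in NaCl/HI against Sham.

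The remaining 15 members, Bax, Bcl2l11, Bik, Bmf, Casp2, Casp8, Casp9, Apaf1, Xiap, Birc2, Fadd, Cflar, Ripk3, Mlkl and Mdm2, were not called in any comparison. Their differences over the 6 pairs ranged from -0.25 to 0.15, with 14 of the 15 within 0.2 in every pair, and the lowest adjusted p was 0.0556. They include the effector Bax, the initiators caspase-8 and caspase-9 with their adaptors Fadd and Apaf1, and the necroptosis kinase Ripk3 with its pore-forming target Mlkl. A p that misses the threshold does not show that these genes were alike in all groups.

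Of the 36 members, 15 had their highest group mean in LPS, which is 41.7% beside 28.9% of all genes, 7 in Sham (19.4% beside 34.1%), 8 in NaCl/HI (22.2% beside 17.2%) and 6 in LPS/HI (16.7% beside 19.8%). The lowest group mean was that of LPS for 7 members (19.4% beside 33%), of Sham for 11 (30.6% beside 27.4%), of NaCl/HI for 10 (27.8% beside 19.9%) and of LPS/HI for 8 (22.2% beside 19.7%). In NaCl/HI against Sham, where 0 were called, 10 members had an unadjusted p under 0.05 by limma and 10 by the exact Wilcoxon rank-sum test, beside 14.8% and 12.7% of all genes. Without NaCl/HI replicate 4 the count of calls was 3, Bak1, Pmaip1 and Casp4. For this and the other fits below with a library left out, the share of all genes called is not given. LPS/HI against LPS gave 1 call without LPS replicate 1 or LPS/HI replicate 1 (Pawr), without LPS replicate 3 (Gsdmd) or without LPS/HI replicate 3 (Bcl2l1), and the unadjusted counts over all libraries were 10 by limma and 7 by the exact Wilcoxon test, beside 15.5% and 14.5% of all genes. The interaction had 15 members at an unadjusted p under 0.05 by limma, 7 positive and 8 negative, beside 15.1% of all genes, and it gave 3 calls without NaCl/HI replicate 4 (Bak1, Pmaip1 and Aifm1), 2 without LPS replicate 3 (Pmaip1 and Aifm1) and 1 without LPS replicate 5, NaCl/HI replicate 3 or LPS/HI replicate 3 (Pmaip1). Groups did not overlap for 8 members in LPS against Sham (13.9% of all genes), 3 in LPS/HI against Sham (6.37%) and 4 in LPS against NaCl/HI (7.31%). The comparisons share samples, so their counts are not independent of each other.

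Of 86 other genes of these pathways in the table, 20 were called in LPS against Sham, 13 higher and 7 lower, which is 23.3% beside the 17.8% of all genes. The smallest adjusted p belonged to Birc5 (survivin, an inhibitor of apoptosis protein that acts in cell division; difference 0.85, SE 0.09), Chek2 (a DNA damage kinase; 0.52), Bcl2l14 (0.66), Bcl2l12 (0.28) and, as the one lower, Septin4 (whose product ARTS binds XIAP; -0.25). Birc5 had group means of 9.54 ± 0.19 (SD, n = 6) in Sham, 10.39 ± 0.23 (n = 5) in LPS, 9.73 ± 0.09 (n = 6) in NaCl/HI and 10.01 ± 0.11 (n = 6) in LPS/HI. Beside it, 6 of the 8 proliferation genes were called higher in LPS than in Sham.

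By pathway, 3 of 12 other BCL2 family genes, 4 of 13 of the caspases and execution genes, 2 of 14 in death receptor signalling, 1 of 9 in necroptosis and pyroptosis, 10 of 33 of the p53 network and 0 of 5 partners of Pawr were called in LPS against Sham. The p53 network went both ways, 4 higher and 6 lower. LPS/HI against Sham gave 6 calls among the 86, 5 higher and 1 lower, a share of 6.98% that is below the 8.77% of all genes, led by Birc5 (0.47), Chek2 (0.30), Bcl2l14 (0.38), Casp1 (the caspase of inflammasomes, 0.21) and Bcl2l2 (a pro-survival gene, 0.15). NaCl/HI against Sham and LPS/HI against NaCl/HI gave 0, beside 0.00985% and 0.202% of all genes. At an unadjusted p under 0.05 by limma, 15 and 9 of the 86 differed, beside 14.8% and 10.6% of all genes.

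LPS/HI against LPS gave 3 calls (3.49% beside 1.94% of all genes), Septin4 (0.26) and Gadd45a (a growth arrest gene that p53 induces, 0.45) higher and Birc5 (-0.38) lower. LPS against NaCl/HI gave 14, 8 higher and 6 lower (16.3% beside 8.98%), led by Birc5 (0.65), Chek2 (0.43), Bcl2l12 (0.29), Septin4 (-0.26) and Cdkn2a (a locus that restrains the cell cycle and Mdm2, 0.40, at weak levels of 2.89 to 3.29 in the group means). The interaction was called for Bcl2l14 (-0.66) and Birc5 (-0.58), both negative (2.33% beside 1.08%), so that the sum of the separate differences of LPS and of HI from Sham exceeded that of LPS/HI. Proliferation genes moved beside Birc5 here too. Of the 8, 3 were called in the interaction, all negative, and 1 was called lower in LPS/HI than in LPS. Their part in the change of Birc5 was not tested.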

How the data were processed

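RNA-sequencing values of CD11b/c-isolated microglia, from 6 LPS/HI, 6 NaCl/HI, 5 LPS and 6 Sham samples grouped by their titles, were taken from the deposited table. The authors quantified reads with kallisto 0.48.0 on mRatBN7.2, applied the rlog of DESeq2, removed 3 surrogate variables and deposited log2 values of 20301 genes. Depth per sample is unknown. In R 4.3.3 with limma 3.58.1, 1 model with a variance trend was fitted to the 23 samples, with residual degrees of freedom lowered from 19 to 16 for the variables removed. No gene was filtered out, and the genes with a mean under 4.14, left out as an alternative, held 0 members. On simulated data for LPS against Sham over 20301 genes, 95% of true differences of 0.5 and 99.67% of those of 1 were recovered. Smaller differences were not simulated. Those of the members in this pair lay between -0.43 and 0.48, so their recovery is not known. Of the simulated calls 8.733% were false, more than the threshold of adjusted p allows for. Only 100 genes were changed per size, beside 3606 called in the data, so this share holds for the simulated setting alone. Library series are library numbers up to 12 and from 13 on. Tables and figures were made with Python 3.11.15, pandas 2.3.3 and matplotlib 3.10.9. Named were Pawr, every called member, the 3 members with the largest difference per comparison, 1 member of a pathway without calls, and at most 5 called other pathway genes per comparison. The members and lists were chosen with earlier results of these data known. Motifs were searched in the 250 bases before each start. Alternatives changed 1 choice at a time, except 1 that left out 2 libraries together.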

Additional observations from a re-analysis of the deposited data

Results flagged for a closer look

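Of 144 combinations of a member and a group, 5 held a sample far from the rest of its group, a gap that chance alone gives in about 1 in 20. The 5 are not more than that rate gives, so they do not mark any library as unusual. In NaCl/HI, replicate 4 had the lowest Bak1, at 10.02 where the others were at 10.24 to 10.29, and the highest Birc3, at 8.55 where the others were at 8.12 to 8.23. Replicate 5 of the same group had the highest Bik, a BH3-only gene, at 6.50 beside 6.27 to 6.34. In LPS/HI, replicate 1 had the lowest Bad, at 8.71 beside 8.92 to 8.97, and the lowest Gsdmd, at 10.02 beside 10.21 to 10.32.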

How the results depend on the processing

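Leaving out 1 library at a time gave 8 to 11 calls among the members in LPS against Sham, 0 to 3 in NaCl/HI against Sham, 1 to 7 in LPS/HI against Sham, 0 to 1 in LPS/HI against LPS, 0 to 4 in LPS/HI against NaCl/HI, 5 to 10 in LPS against NaCl/HI, 0 to 3 for the interaction and 9 to 15 for any difference among the groups. A fold above 2 left 0 in each pair. With 19 residual degrees of freedom the counts, each with the share of all genes called under the same setting, were 1 in NaCl/HI against Sham (0.729%), 3 in LPS/HI against LPS (4.96%), 3 in LPS/HI against NaCl/HI (1.20%), 3 for the interaction (3.28%) and 21 for any difference (24.5%). With array weights, whose estimation stopped before it converged, they were 3 in NaCl/HI against Sham (3.21%), 16, 12 and 12 in LPS/HI against Sham (42.2%), LPS (4059 genes) and NaCl/HI (14.4%), 11 for the interaction (10.9%) and 26 for any difference (53.5%). The exact Wilcoxon test gave 3 in LPS/HI against Sham and 0 in LPS/HI and in LPS against NaCl/HI, where even genes without overlap had an adjusted p of 0.162 and 0.0593, so these say nothing about stability. Fitting only the groups compared gave 4 in LPS against NaCl/HI and 0 in LPS/HI against NaCl/HI, and the latter was also 0 with no variance trend, library series as a term, median centring or quantile normalization. Leaving out the genes with a mean under 4.14 and median centring each gave 1 in LPS/HI against LPS, and the interaction had 2 and 1, and 1 with quantile normalization. Without NaCl/HI replicate 4 and LPS/HI replicate 1 together, chosen after seeing the data, there were 3, 10, 1 and 3 calls in NaCl/HI against Sham, LPS/HI against Sham, LPS and NaCl/HI, and 2 for the interaction. The share of all genes called is not given for any fit with libraries left out. A change in those counts therefore cannot be read as one of the members alone. The cause of these changes was not tested.

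Replicate numbers did not pair the samples. Of 33 pairs with the same number, 9 had a correlation of deviations over 0.1, the range was -0.475 to 0.47, and 5 samples had their best match in another group under their own number. A replicate block gave 1 call in LPS/HI against Sham, 0 in LPS/HI against NaCl/HI, 4 in LPS against NaCl/HI and 6 for any difference. Over the 42 combinations of a gene and a comparison that the rule named, direction and side of the threshold were kept in 848 fits with 1 library left out and 389 under other settings, a call was lost in 106 and 49, and one was gained in 11 and 18. Among these 42, 1 difference turned, that of Pawr in LPS against NaCl/HI, which was -0.03 without LPS replicate 1 and up to 0.11 in the other fits with 1 library left out. With rlog values and no counts, precision at low levels, as for Pawr, Fas and Tnfrsf10b, cannot be given.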
